A study of Oncorhynchus tshawytscha with 15 samples.

Results

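The contigs described here are the 142, of 183740 in the gill transcriptome of juvenile Chinook salmon (Oncorhynchus tshawytscha), whose read level lay above the cool libraries from 18° upward. A contig is a stretch of transcript assembled from the sequence reads without a genome, so that 1 gene can be spread over several contigs. Levels were expressed as CPM, the reads counted on a contig for each 1000000 reads counted in its library. The members were selected on these measured values: a mean of at least 1 CPM at 18°, and a lowest CPM at 18°, at 21° and at 25° that each exceeded 1.5 times the highest CPM of the 6 libraries at 12° and 15°. The rule allowed for 150 contigs, ranked by the ratio of the mean at 18° to the mean at 12° and 15°, and 142 met it. The higher levels at 18°, 21° and 25° than at 12° and 15° are therefore what defines these contigs, and they are given below as a description with no test.

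The fish were fall-run juveniles from the Merced River Hatchery, 5 months after hatching, all reared at 12°. Groups were moved quickly into water at 15°, 18°, 21° or 25° for 3 hr and then returned to 12° for 1 hr, whereas the 12° control group was handled in the same way and stayed at 12°. RNA from the gill arch was sequenced in 15 libraries, 3 at each temperature, and each library was a proportional pool of 11 fish, which makes 33 fish for each temperature and 165 overall. In the 25° group 12 of the 33 fish stopped responding or died in the warm water and were sampled promptly. Part of those pools therefore did not go through the whole treatment. Because the RNA was pooled, the spread between libraries is a spread between pools and holds no measure of variation among individual fish. In a bulk sample, more RNA per cell and more cells of a type cannot be told apart.

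Cells exposed to heat accumulate unfolded proteins, and the heat shock response, driven by heat shock transcription factors, raises the transcripts of molecular chaperones that refold or hold such proteins. Many of these transcripts are scarce in unstressed cells and accumulate within minutes to hours of warming. The gill is in direct contact with the water and carries out gas exchange, ion regulation and nitrogen excretion. The table analysed gives contig numbers without gene names or sequences. The study annotated its changed contigs in a published list, which was not used here, so the 142 contigs are not assigned to chaperones or to any other pathway, and the tissue was not checked against marker genes. Contigs are named below by the number in their label, and the prefix denovo_ marks those whose label carries the second of the name forms in the table.

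Each library held 58654252 to 90869450 counted reads, so that 3 reads corresponded to 0.0330 to 0.0511 CPM. The first 12° library had at least 1 read on 183630 contigs, compared with 164580 to 177769 in the other 14. Clearing the bar of 1.5 times was uncommon at 18° and frequent at 25°: 242 contigs cleared it at 18°, 1411 at 21° and 9382 at 25°, whatever their level. All 3 temperatures were cleared by 183 contigs, of which the 142 members also had a mean of at least 1 CPM at 18°, and 75876 contigs had that level at 18°. Only 15 contigs cleared the bar at 18° and 21° but not at 25°, and 28 cleared it at 18° alone. In contrast, 1000 contigs cleared it first at 21° and again at 25°, and 8183 cleared it at 25° alone.

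Contigs near the bar show how narrow its edge was. The members closest to it were contig_1389301, whose lowest library at 18° had 3.36 CPM against a highest cool library of 2.23 CPM, and contig_1425411, with 1.49 CPM against 0.993 CPM. Just outside lay denovo_contig_74490, with 8.63 CPM against 5.76 CPM, and contig_1418856, with 10.6 CPM against 7.07 CPM.

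Together the 142 contigs took a small share of the reads in cool water and a large one at 25°. In the 12° control libraries they held 0.120%, 0.114% and 0.0977% of all counted reads. At 15° the shares were 0.127%, 0.124% and 0.130%, and at 18° they were 0.339%, 0.313% and 0.331%. The 15° libraries thus lay just above the 12° libraries, and the 18° libraries well above both. At 21° the shares were 1.11%, 1.15% and 1.03%, and at 25° they were 6.55%, 6.58% and 5.50%. The group means were 0.111% ± 0.0116, 0.127% ± 0.00302, 0.328% ± 0.0133, 1.09% ± 0.0611 and 6.21% ± 0.616 (SD, n = 3 libraries) from 12° to 25°. The libraries of 18°, 21° and 25° did not overlap with each other or with the cool ones. The rule fixes the gap to the cool libraries, but not the order of 18°, 21° and 25°.

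**Figure D1:**
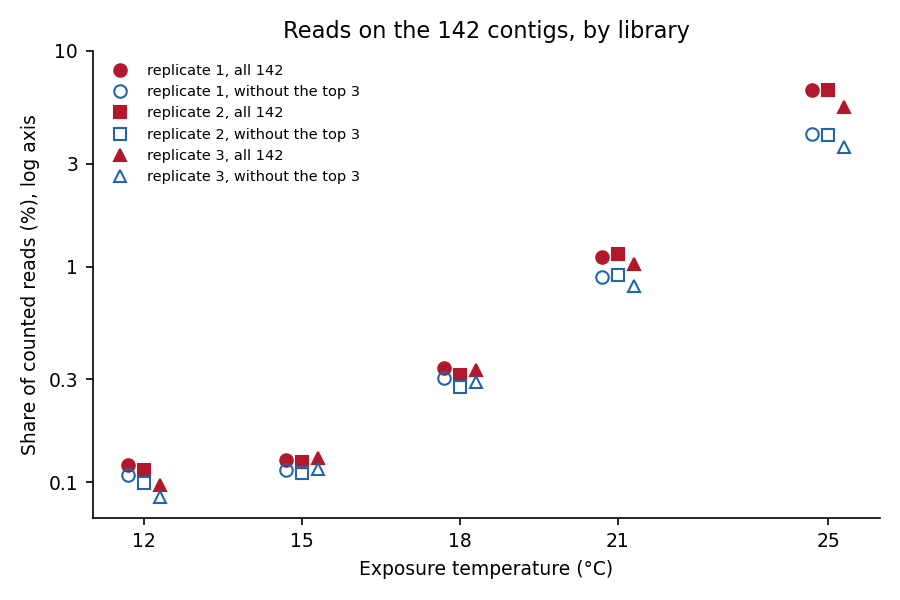
Share of counted reads held by the 142 contigs (vertical log axis, in percent) against exposure temperature, with 1 point for each of the 15 libraries. Filled points are all 142 contigs and open points leave out the 3 most abundant at 25°. Filled points lie between 0.0977% and 0.130% at 12° and 15°, and reach 5.50% to 6.58% at 25°.

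A few contigs carried much of the share at 25°. Without denovo_contig_21086, denovo_contig_67625 and denovo_contig_3643, the mean share was 0.0975% at 12°, 0.113% at 15°, 0.292% at 18°, 0.875% at 21° and 3.91% ± 0.294 (SD, n = 3) at 25°. The same order of temperatures therefore held for the rest of the contigs as a group. Over single contigs, the median of the mean CPM was 2.45 at 12°, 3.08 at 15°, 7.52 at 18°, 21.8 at 21° and 59.3 at 25°.

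Relative to the mean of the 6 cool libraries, the level at 18° was 1.70 to 15.0 times higher, with a median of 2.50. At 21° the ratio was 2.68 to 131, with a median of 6.70, and at 25° it was 1.99 to 1331, with a median of 21.1. At 18°, 19 contigs were above 5-fold, 43 above 3-fold and 18 below 2-fold. At 25°, 95 contigs were above 10-fold and 26 of them above 100-fold, while 11 were below 3-fold. The mean CPM followed the order of temperature at every step, from 12° to 25°, in 106 of the 142. Of these steps, the one from 15° to 18° was fixed by the rule, and the share in other contigs was not counted. The mean was highest at 25° in 126 contigs and at 21° in the other 16. Spread between the pools was modest: the median coefficient of variation over members was 16.0% at 12°, 11.7% at 15°, 7.50% at 18°, 10.8% at 21° and 9.71% at 25°. Over all tested contigs with a mean of at least 1 CPM over the 15 libraries, the corresponding medians were 12.9%, 11.7%, 8.67%, 12.1% and 15.2%. The rule compared the lowest library at 18°, 21° and 25° with the highest cool library, which favoured contigs with little spread within groups. The spread of the members was thus partly set by their selection.

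The contigs with the largest ratio at 18° were denovo_contig_71903 and denovo_contig_60596. The libraries of denovo_contig_71903 (255 bp) had 2.09, 2.91 and 1.79 CPM at 12°, 3.39, 4.30 and 3.58 CPM at 15°, 44.2, 44.3 and 47.0 CPM at 18°, 386, 405 and 357 CPM at 21°, and 2128, 2277 and 1925 CPM at 25°. Those of denovo_contig_60596 (1707 bp) had 2.73, 3.62 and 2.16 CPM at 12°, 4.10, 4.48 and 4.55 CPM at 15°, 53.0, 51.4 and 55.3 CPM at 18°, 471, 512 and 431 CPM at 21°, and 2390.2, 2564 and 2178 CPM at 25°. Both had all of their 15° libraries above all of their 12° libraries, and no group overlapped with another. Their ratios to the cool mean were 15.0 and 14.8 at 18°, 127 and 131 at 21°, and 701 and 659 at 25°. From 18° to 21° the level rose by a log2 fold change of 3.10 ± 0.10 (SE) for denovo_contig_71903 (adjusted p = 6.1e-06) and 3.16 ± 0.11 for denovo_contig_60596 (adjusted p = 6.4e-06). From 21° to 25° it rose again, by 2.79 ± 0.15 (adjusted p = 4.6e-07) and 2.66 ± 0.15 (adjusted p = 7.1e-07). Adjusted p-values, here and below, come from the quasi-likelihood test of edgeR and were adjusted by the Benjamini-Hochberg method over the 155951 contigs tested.

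The contigs with the highest ratio at 25° were denovo_contig_67625 and denovo_contig_21086, which at 18° had been less far above the cool libraries. The libraries of denovo_contig_67625 (276 bp) had 3.59, 8.21 and 5.95 CPM at 12°, 3.06, 5.68 and 7.89 CPM at 15°, 30.3, 34.6 and 42.2 CPM at 18°, 363, 434 and 427 CPM at 21°, and 7896, 9071 and 5922 CPM at 25°. Those of denovo_contig_21086 (415 bp) had 5.31, 10.8 and 7.72 CPM at 12°, 6.11, 6.32 and 10.1 CPM at 15°, 33.9, 39.6 and 48.9 CPM at 18°, 393, 430.1 and 432 CPM at 21°, and 8979.6, 8606 and 6688 CPM at 25°. At 12° and 15° the libraries of these contigs overlapped widely, and at 18° the lowest library was the first and the highest the third for both. Their ratios to the cool mean were 6.23 and 5.28 at 18°, 71.2 and 54.2 at 21°, and 1331 and 1047 at 25°. The step from 18° to 21° was 3.52 ± 0.14 on the log2 scale for denovo_contig_67625 (adjusted p = 9.5e-06) and 3.37 ± 0.14 for denovo_contig_21086 (adjusted p = 9.5e-06). With denovo_contig_60596, these were the largest called rises at 21°. The step from 21° to 25° was larger still, at 4.56 ± 0.21 (adjusted p = 2.3e-07) and 4.60 ± 0.18 (adjusted p = 1.6e-07).

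Dividing reads by contig length allows a rough comparison between contigs. It gives RPKM, the reads per kilobase of contig for each 1000000 reads of the library. Several of the contigs compared here are short, and how far their length affects RPKM was not tested. At 18° the highest RPKM among the members was that of denovo_contig_71727 (218 bp), with 297, 278 and 295 RPKM in its 3 libraries. It was followed by denovo_contig_65003 with 278, 251 and 273 RPKM, denovo_contig_40569 with 284, 255 and 256 RPKM, and denovo_contig_61835 with 285, 235 and 256 RPKM. The libraries of these 4 contigs overlapped at 18°, so their order was not larger than the spread between pools. Next came denovo_contig_71903, at 173, 174 and 184 RPKM, below every library of the other 4. At 25° the order was different. The RPKM of denovo_contig_67625 was then 28608, 32866 and 21457, and that of denovo_contig_21086 was 21638, 20737 and 16116. Their libraries overlapped with each other and lay above those of denovo_contig_71727, at 8669, 9583 and 8100.0 RPKM, and of denovo_contig_71903, at 8344, 8931 and 7548 RPKM. In contrast, denovo_contig_61835, abundant already in cool water with 107, 88.6 and 69.8 RPKM at 12°, reached only 643, 628 and 763 RPKM at 25°.

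The first question that the selection rule does not decide is whether the contigs already differed between 15° and 12°, since the rule treats these 6 libraries as 1 set. No contig of the 155951 tested was called at an adjusted p below 0.01 and a fold change above 2, which is 0% of all contigs higher at 15° and 0% lower, and so 0 of the 142 members were called in either direction. At an unadjusted p below 0.05 and the same fold, 3 members (2.11%) were higher, against 0.398% of all contigs, and 0 were lower, against 0.498%. DESeq2 called 0 members either way, against 0% higher and 0.00128% lower. The 3, named after their values were seen, were contig_518021, with a log2 fold change of 1.28 ± 0.31, contig_1408986, with 1.02 ± 0.39, and contig_866862, with 1.05 ± 0.32, and all had an adjusted p = 1. In size the members were nonetheless shifted: the median log2 fold change was 0.21 over the members and -0.0068 over all contigs tested, and it was above 0 in 116 of the 142 members, compared with 48.8% of all contigs. All 3 libraries at 15° lay above all 3 at 12° in 38 members (26.8%), against a background of 5.05% of all contigs tested. They all lay below in 3 members (2.11%), against 3.66%. Several contigs may come from 1 transcript, and all were measured in the same pools. Counts of members, here and at the later steps, are therefore not counts of independent observations.

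The size of that shift depended in part on the third 12° library. Against the mean of its 6 cool libraries, the median member had a log2 level of -0.011, -0.071 and -0.24 in the 12° libraries and of 0.13, 0.071 and 0.15 in the 15° libraries. The third 12° library was below the contig's own mean in all but 24 of the 142 members, whereas the 15° libraries were above it in 108, 96 and 118. Over all contigs compared, the medians of the same libraries ranged only from -0.053 to 0.041. Without the third 12° library, the median log2 fold change at 15° was 0.11 and 101 members were above 0. Leaving out any other library of the 6 gave 112 to 125 members above 0. What sets this library apart was not tested.

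**Figure D2:**
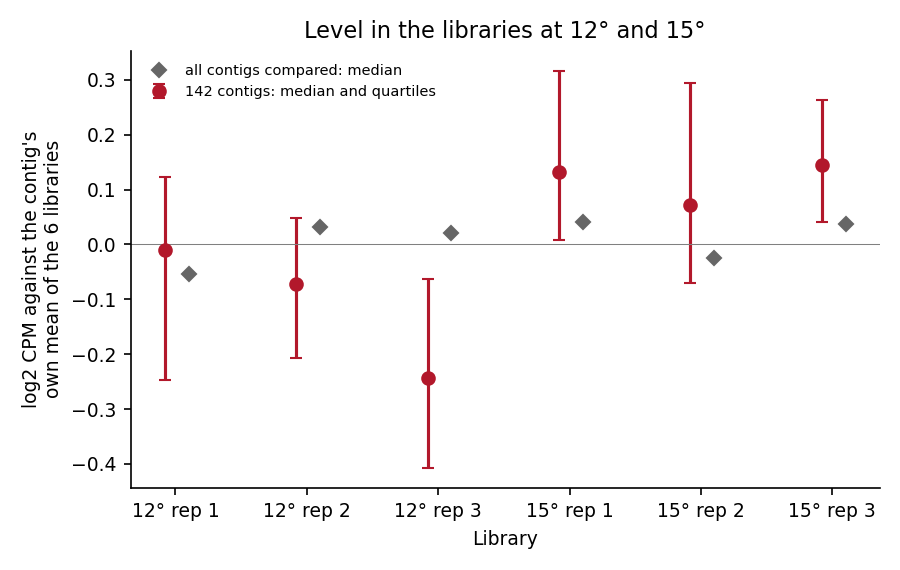
Level of the 142 contigs in the 6 libraries at 12° and 15°, as log2 CPM relative to the contig's own mean of these libraries (vertical axis). Circles and bars are the median and quartiles over the 142 contigs, and diamonds the median over all 129763 contigs compared. The median of the 142 lies at -0.24 in the third 12° library and at 0.071 to 0.15 in the 15° libraries.

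Some members had all of their 15° libraries above all of their 12° libraries, although none passed the threshold. For denovo_contig_65003 (553 bp) the 12° libraries had 21.9, 20.4 and 16.8 CPM and the 15° libraries 36.2, 34.5 and 32.4 CPM, a log2 fold change of 0.78 ± 0.13 (adjusted p = 1). For denovo_contig_40569 (480 bp) the values were 20.7, 19.5 and 15.2 CPM at 12° and 31.3, 32.2 and 32.3 CPM at 15°, a log2 fold change of 0.77 ± 0.14 (adjusted p = 1). Neither contig had overlapping libraries at these temperatures, and both changes were below 2-fold. In both, the third 12° library was the lowest. These contigs also ran closely together over the 15 libraries, as described below, and may not be separate cases. The libraries of denovo_contig_71727 overlapped, with 23.5, 21.7 and 20.8 CPM at 12° and 24.1, 21.5 and 23.3 CPM at 15°, a log2 fold change of 0.04 ± 0.11. The highest of the 6 cool libraries, which set the bar for each contig, was at 15° in 102 members and at 12° in 40.

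The next step, from 18° to 21°, was upward in nearly the whole group. Of the 142 members, 88 (62%) were called higher at 21°, against a background of 0.151% of all contigs tested, or 235 contigs. Since the rule selected contigs with high levels at 21°, part of the excess over all contigs in the counts of this step was built in. No member was called lower, against 0.000641%, or 1 contig of all those tested. At an unadjusted p below 0.05 and the same fold 0 members were lower, against 0.738% of all contigs. DESeq2 called 95 members higher, against 0.231%, and 0 lower, against 0.0109%. The replicates were run on 3 consecutive days, but the labels do not say that the replicate number marks the day. With the replicate number as a block 69 members were called higher, against 0.0911% or 142 of all contigs. In that fit 0 were called lower, against 0%. The mean CPM was higher at 21° than at 18° in all 142. All 3 libraries at 21° lay above all 3 at 18° in 137 members (96.5%), against 7.14% of all contigs, and they lay below in 0 members, against 7.09%. The median log2 fold change was 1.33 over members and -0.0027 over all contigs tested. The rule required a level above the bar at both temperatures and did not order them. It did, however, leave out contigs that were low at 18° and high at 21°. Among these were the 792 that had at least 1 CPM at 21° and cleared the bar at 21° and 25° only. The rule also limited lower calls, since a contig below the bar at 21° could not be a member. In plain CPM, a fall of more than 2-fold needed a ratio above 3-fold at 18°, which 43 members had. For the other members the count of 0 called lower was largely fixed by the rule.

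The step from 18° to 21° ranged from 0.12 to 3.52 on the log2 scale. At the low end was denovo_contig_52382, named here after its values were seen, with 1.55, 1.65 and 1.59 CPM at 18°, 1.46, 2.00 and 1.69 CPM at 21°, and 1.78, 1.98 and 1.56 CPM at 25°. Its libraries at the 3 temperatures overlapped, and all lay above its cool libraries, which had 0.364 to 0.858 CPM. The number called at 21° depended on single libraries. It was 56 without the third 18° library and 57 without the first 21° library, and 61 to 99 when any of the other 4 was left out. Over all contigs tested, the numbers were 95, 105 and 113 to 306.

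The last step, from 21° to 25°, was upward in most members but not in all. Some fish in the 25° pools did not complete the treatment, and how far this affects the step was not tested. Of the 142, 103 (72.5%) were called higher at 25°, against a background of 6.36% of all contigs, or 9924. Members were selected for high levels at 25°, so part of the excess over all contigs in the counts of this step was built in. None was called lower, against 3.38%, or 5276 contigs. At an unadjusted p below 0.05 and the same fold 0 members were lower, against 8.28%. DESeq2 called 103 members higher, against 7.51%, and 0 lower, against 4.22%. A contig that fell at 25° to less than 1.5 times its highest cool library could not be a member, and only 15 contigs of any level had cleared the bar at 18° and 21° and failed it at 25°. All 3 libraries at 25° lay above all 3 at 21° in 120 members (84.5%), against 12.4% of all contigs. They lay below in 8 members (5.63%), against 35.2%. These counts of libraries were made in plain CPM, and their backgrounds depend on that scale. Over all contigs tested, the fold change at 25° was above 0 in 32.7% with library totals and in 48.5% with TMM.

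The scale of this step depended on the normalization. With TMM over all 15 libraries, the scaling factors of the 25° libraries were 0.836, 0.786 and 0.839 and those of the other 12 libraries 1.01 to 1.08. Values scaled in this way were higher at 25° than plain CPM. The step itself was fitted with factors computed over its own 6 libraries, which are not given here. The median log2 fold change over all contigs tested was -0.028 with TMM and -0.35 with library totals. The median over members was 1.94 with TMM and 1.61 with library totals, above that of all contigs by nearly the same amount. With library totals 93 members were called higher, against 4.17% of all contigs, and 0 lower, against 7.97%, so over all contigs the balance of higher and lower calls turned with the scaling (6.36% and 3.38% with TMM). The fold change was above 0 in 131 members with TMM and in 126 with library totals. The 5 members whose sign changed were contig_270957, denovo_contig_64807, denovo_contig_72013, denovo_contig_79176 and contig_1259525, all with changes of 0.29 or less in size, and none was called under either scaling.

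**Figure D3:**
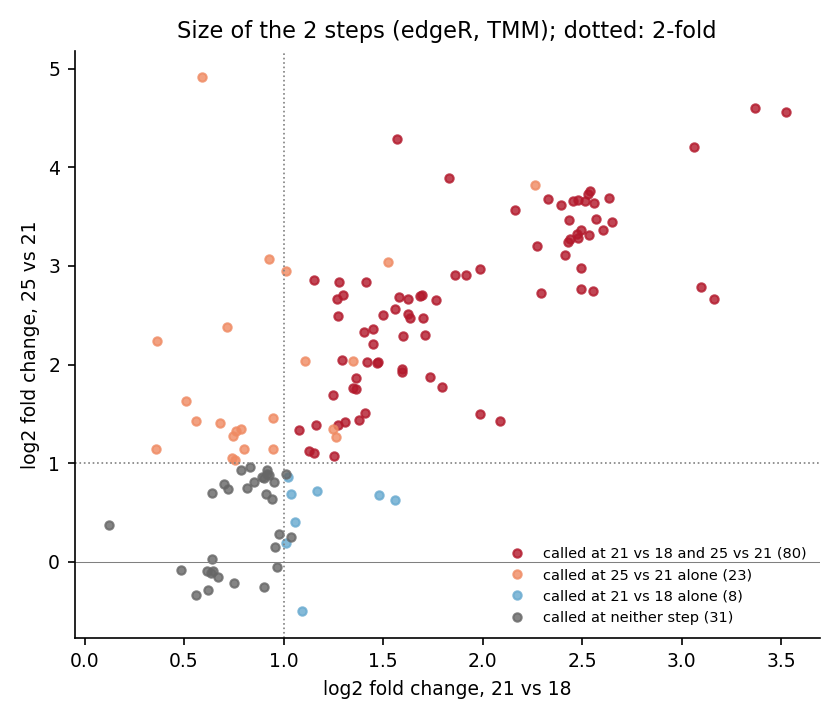
Log2 fold change from 18° to 21° (horizontal axis) against that from 21° to 25° (vertical axis) for the 142 contigs, with TMM scaling, coloured by the steps at which a contig was called. Dotted lines mark a 2-fold change. The 80 contigs called at both steps lie in the upper right, up to 3.52 and 4.60, and none of the 142 lies below 0 on the horizontal axis.

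Calls at the steps divided the contigs into 4 groups, which describe the shape of the response and whose differences were not themselves tested. Over all contigs tested, 0.151% were called higher at 21° and 6.36% at 25°, and the share called at both steps was not counted. Both steps were called in 80 members, 25° against 21° alone in 23, 21° against 18° alone in 8, and neither in 31. At 18° their median ratios to the cool mean were 2.54, 2.51, 2.84 and 2.41 and their highest ratios 15.0, 5.80, 4.20 and 7.92. Of the 19 contigs above 5-fold at 18°, 17 were among the 80 called at both steps. At 25° the median ratios were 43.1, 11.8, 6.99 and 4.57. The 80 contigs called at both steps were 7.15 to 1331 times above the cool mean at 25°, and the 31 called at neither were 1.99 to 15.4 times above it. The log2 fold change was larger from 21° to 25° than from 18° to 21° in 102 members with TMM and in 81 with library totals.

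**Figure D4:**
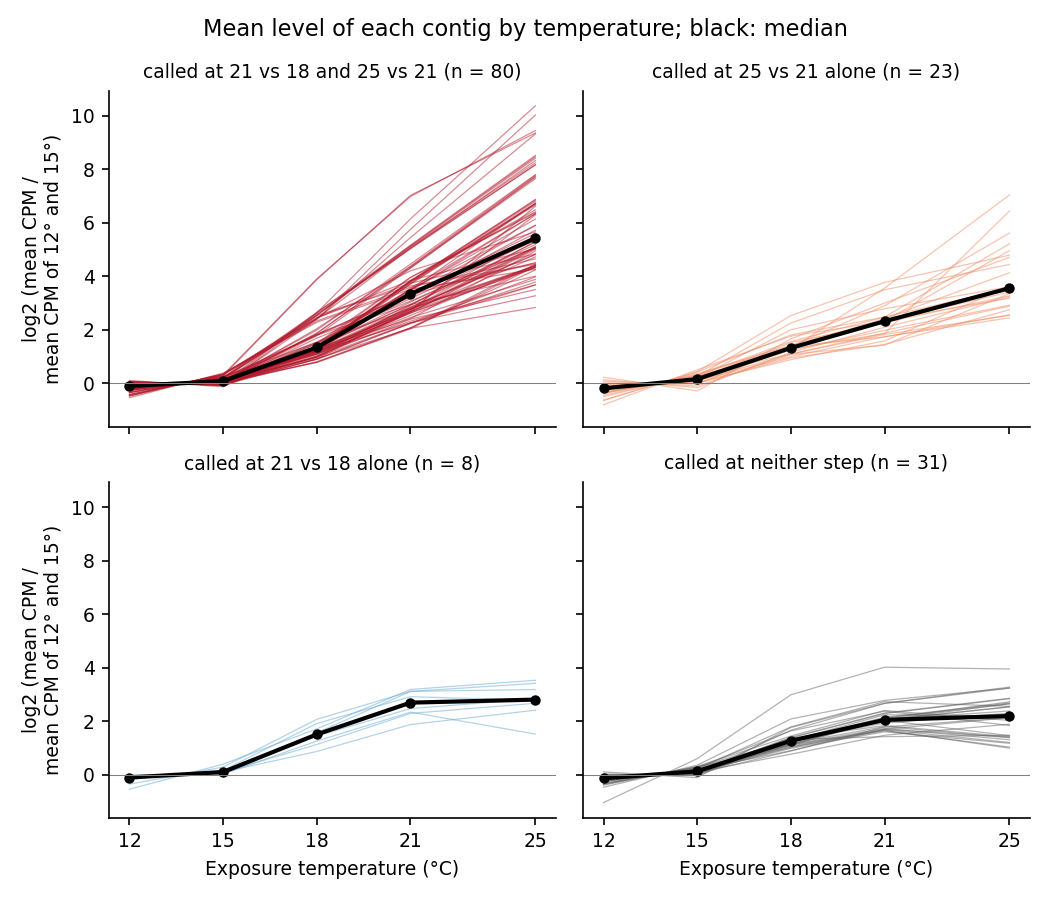
Mean CPM of each contig relative to its mean over the 12° and 15° libraries (vertical axis, log2) against exposure temperature, in 4 panels by the steps called. Thin lines are single contigs and the black line is the median. The median of the 80 contigs called at both steps is highest at 25°, at 43.1 times the cool mean. That of the 31 called at neither is 4.57 times. The calls that define the panels build in part of this difference.

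Members with a late, steep step were contig_521207 and denovo_contig_19852. The libraries of contig_521207 (784 bp) had 1.94, 1.58 and 1.94 CPM at 18°, 2.24, 2.92 and 3.01 CPM at 21°, and 80.9, 73.8 and 40.5 CPM at 25°, compared with 0.522 to 1.03 CPM in the cool libraries. Its step at 21° was not called (0.59 ± 0.18, adjusted p = 0.46), and its step at 25° was the largest of all members (4.91 ± 0.27, adjusted p = 5.7e-07). The libraries of denovo_contig_19852 (1260 bp) had 1.55, 1.86 and 1.89 CPM at 18°, 4.60, 5.06 and 5.94 CPM at 21°, and 97.2, 91.6 and 51.9 CPM at 25°. It rose at both steps, by 1.57 ± 0.15 (adjusted p = 0.0015) and 4.28 ± 0.24 (adjusted p = 6.9e-07). In both contigs the third 25° library was the lowest by a wide margin. It was the lowest of the 3, by any margin, in 75 of the 142 members.

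Other contigs had their last called step at 21°. The longest of them was denovo_contig_61835 (2869 bp), with 306, 254 and 200.3 CPM at 12°, 306, 273 and 298 CPM at 15°, 818, 674 and 734 CPM at 18°, 1601, 1557 and 1378 CPM at 21°, and 1844, 1801 and 2189 CPM at 25°. It rose by 1.04 ± 0.12 from 18° to 21° (adjusted p = 0.0047, or 0.032 with the replicate block), and its further change of 0.69 ± 0.14 stayed below 2-fold (adjusted p = 0.0042). All of its 25° libraries nonetheless lay above all of its 21° libraries. The other 7 contigs called at 21° alone were at 2.86 to 11.5 times their cool mean at 25°.

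In 16 members the mean CPM peaked at 21°, and the one with the lowest log2 fold change at 25°, chosen after its values were seen, was denovo_contig_85494 (1745 bp). Its libraries had 6.55 to 10.3 CPM at 12° and 15°, 25.4, 19.6 and 21.1 CPM at 18°, 51.3, 48.6 and 39.8 CPM at 21°, and 21.2, 21.9 and 36.0 CPM at 25°. The rise at 21° was called (1.09 ± 0.14, adjusted p = 0.0098), but not with the replicate block (adjusted p = 0.015). The change at 25° was -0.50 ± 0.20 (adjusted p = 0.088), which did not pass the threshold although the libraries did not overlap. In contig_1389301, at the edge of the rule, the libraries at 21° and 25° did not overlap either. Its rise at 21° was not called (0.67 ± 0.12, adjusted p = 0.056). It had 5.43, 5.15 and 5.82 CPM at 21° and 3.70, 3.42 and 4.66 CPM at 25°, a change of -0.15 ± 0.17 (adjusted p = 0.56). Because TMM scaled the 25° libraries up, this fitted change was smaller than the change in CPM.

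Among the 6 members with the largest ratio at 18° there were also contigs of low abundance. The scarcest was contig_270957 (1139 bp), which had 8, 0 and 8 reads in the 12° libraries, 23, 9 and 13 reads at 15°, 123, 72 and 69 reads at 18°, 154, 160 and 164 reads at 21°, and 120, 115 and 163 reads at 25°. It was the only member with 3 reads or fewer in any cool library, so its ratio of 7.92 at 18° rests on few reads below the bar. Its libraries at 18° to 25° ran from 0.840 to 2.60 CPM, and neither step was called (1.04 ± 0.25, adjusted p = 0.23, and 0.26 ± 0.21, adjusted p = 0.42). The other 2 of these 6 contigs rose at both steps. The libraries of denovo_contig_52798 (341 bp) had 13.5, 16.9 and 17.3 CPM at 18°, 82.5, 77.1 and 89.2 CPM at 21°, and 1009, 745 and 671 CPM at 25°, with steps of 2.39 ± 0.11 (adjusted p = 1.1e-05) and 3.61 ± 0.17 (adjusted p = 2.6e-07). Those of denovo_contig_71904 (279 bp) had 10.3, 12.0 and 12.2 CPM at 18°, 58.1, 63.8 and 74.4 CPM at 21°, and 772, 702 and 498 CPM at 25°, with steps of 2.51 ± 0.11 (adjusted p = 9.7e-06) and 3.66 ± 0.19 (adjusted p = 3.9e-07). Both contigs were above 300-fold at 25°, at 323 and 356 times the cool mean.

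The other 3 contigs of high RPKM at 18° rose at both steps. For denovo_contig_71727 the CPM values were 64.7, 60.6 and 64.3 at 18°, 361, 378 and 318 at 21°, and 1889.8, 2089 and 1766 at 25°, with steps of 2.49 ± 0.11 (adjusted p = 9.7e-06) and 2.77 ± 0.15 (adjusted p = 5.9e-07). For denovo_contig_65003 they were 154, 139 and 151 at 18°, 405, 377 and 306 at 21°, and 792, 788 and 743 at 25°, with steps of 1.31 ± 0.13 (adjusted p = 0.0019, or 0.011 with the replicate block) and 1.42 ± 0.15 (adjusted p = 4.9e-05). For denovo_contig_40569 they were 136, 122 and 123 at 18°, 332, 325 and 255 at 21°, and 636, 679 and 595 at 25°, with steps of 1.28 ± 0.13 (adjusted p = 0.0021) and 1.39 ± 0.15 (adjusted p = 7.2e-05). The last 2 of these contigs thus had a large ratio at 18°, of 5.48 and 5.05, and smaller steps after it, whereas denovo_contig_71727 had a ratio of 2.81 at 18° and larger steps.

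The length of the contigs was not used by the rule. The members were 144 to 4253 bp long, with a median of 659.5 bp, compared with 926 bp for the 75876 contigs with at least 1 CPM at 18° and 765.5 bp for the 792 contigs that cleared the bar only at 21° and 25°. Contigs under 300 bp made up 28.9% of the members (41), 15.9% of the contigs with at least 1 CPM at 18° and 20.1% of the 792. The members were split evenly between the forms of name, with 71 of 142 (50%) carrying the denovo_ prefix, compared with 44.8% of the contigs with at least 1 CPM at 18°. The groups by steps differed in length, with a median of 481.5 bp for the 80 contigs called at both steps, 768 bp for those called at 25° alone, 1417 bp for those called at 21° alone and 773 bp for those called at neither. These are descriptions, since several contigs may come from 1 transcript and were counted separately.

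The longest members were denovo_contig_57732 (4253 bp) and contig_466211 (4081 bp). The libraries of denovo_contig_57732 had 12.0 to 18.7 CPM at 12° and 15°, 33.4, 35.3 and 31.6 CPM at 18°, 72.3, 80.5 and 83.4 CPM at 21°, and 195, 230.1 and 182 CPM at 25°, and it rose at 21° (adjusted p = 0.00018) and again at 25°, by 1.69 ± 0.14 (adjusted p = 9.0e-06). Those of contig_466211 had 5.26 to 7.04 CPM in the cool libraries, 24.0, 19.1 and 22.2 CPM at 18°, 50.6, 36.8 and 34.8 CPM at 21°, and 57.0, 51.6 and 77.4 CPM at 25°. Its steps of 0.92 ± 0.16 (adjusted p = 0.056) and 0.93 ± 0.18 (adjusted p = 0.0037) both stayed below 2-fold. The shortest, contig_577065 (144 bp), had 1.89, 1.60 and 1.65 CPM at 18°, 3.73, 3.47 and 3.11 CPM at 21°, and 4.51, 5.01 and 5.78 CPM at 25°, with steps of 1.01 ± 0.16 (adjusted p = 0.034) and 0.90 ± 0.18 (adjusted p = 0.0039). The next shortest, contig_1337451 (150 bp), had 2.96, 2.77 and 2.45 CPM at 18°, 3.87, 4.91 and 3.87 CPM at 21°, and 2.86, 2.57 and 4.05 CPM at 25°, and neither step was called (0.65 ± 0.16, adjusted p = 0.26, and -0.10 ± 0.21, adjusted p = 0.78). Long and short contigs were thus both found among those with a step that was called and those without, as contig_1425411 (267 bp) also shows, with 1.54, 1.49 and 1.61 CPM at 18°, 2.67, 2.59 and 3.53 CPM at 21°, and 20.9, 24.7 and 12.8 CPM at 25°. Its step at 25° was 3.07 ± 0.25 (adjusted p = 7.0e-06).

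Reads that align equally well to several contigs cannot be assigned to 1 of them, and 7 members (4.93%) had fewer than 50% unique reads, compared with 1.82% of the contigs with at least 1 CPM at 18°. In contig_866862 and contig_870151, each 176 bp long, and contig_925323 (164 bp), at most 0.992% of the reads were unique at any temperature. The libraries of contig_925323 had 2.13, 1.40 and 1.26 CPM at 18°, 7.95, 4.41 and 10.7 CPM at 21°, and 82.9, 76.0 and 99.4 CPM at 25°, with a called step at 25° of 3.82 ± 0.26 (adjusted p = 2.3e-06). Those of contig_866862 had 17.7, 13.6 and 18.3 CPM at 18°, 48.2, 31.8 and 37.0 CPM at 21°, and 75.2, 80.4 and 81.3 CPM at 25°, with a called step at 25° of 1.35 ± 0.16 (adjusted p = 0.00012). Those of contig_870151 had 11.7, 12.3 and 8.62 CPM at 18°, 27.7, 30.1 and 19.5 CPM at 21°, and 59.1, 40.8 and 48.8 CPM at 25°, with a called step at 25° of 1.26 ± 0.19 (adjusted p = 0.00059). With the replicate number as a block the step at 21° was also called in contig_866862 (adjusted p = 0.0089, or 0.014 without it) and in contig_870151 (adjusted p = 0.0043, or 0.023 without it). The values of these 3 contigs are uncertain, because nearly all of their reads aligned equally well to other contigs.

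In denovo_contig_41831 (964 bp) the share of unique reads itself moved with temperature, from 67.4% at 12° and 65.8% at 15° to 22.1% at 18°, 12.9% at 21° and 8.50% at 25°. Its total reads gave 0.206 to 0.861 CPM in the cool libraries, 2.80, 2.24 and 2.73 CPM at 18°, 21.7, 24.4 and 18.2 CPM at 21°, and 321, 354 and 267 CPM at 25°, with steps of 3.06 ± 0.16 (adjusted p = 2.6e-05) and 4.20 ± 0.19 (adjusted p = 2.2e-07). The ratio of 643 to the cool mean at 25° was therefore made mostly of reads shared with other contigs. When unique reads were used in place of total reads, 137 contigs met the rule, of which 135 were members, and the 7 that no longer did included these 4 contigs. The 3 others were contig_768267, with 18.3% unique reads over all libraries, contig_981014, with 67.2%, and denovo_contig_81076, with 83.7%.

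Some members followed each other closely through all 15 libraries. Among the 104 members with a mean of at least 1 CPM at 12° and 15°, contigs were put in 1 set where the log2 CPM of every pair, each relative to its own mean, differed by at most 0.5 in every library. This gave 14 sets of 3 or more contigs that held 51 members, 12 pairs, and 29 members in no set. The sets were formed from the values they describe, and no likeness of sequence or function can be read from them. The largest had 8 contigs, contig_665334, contig_678946, contig_861026, denovo_contig_21286, denovo_contig_53997, denovo_contig_70281, denovo_contig_71727 and denovo_contig_71902, which were 153 to 563 bp long and 2340 bp together. In plain CPM their level changed by -0.011 to 0.28 on the log2 scale from 12° to 15°, was 1.31 to 1.52 above 12° at 18°, and was a further 2.43 to 2.59 higher at 21° and 2.44 to 3.04 higher at 25°.

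**Figure D5:**
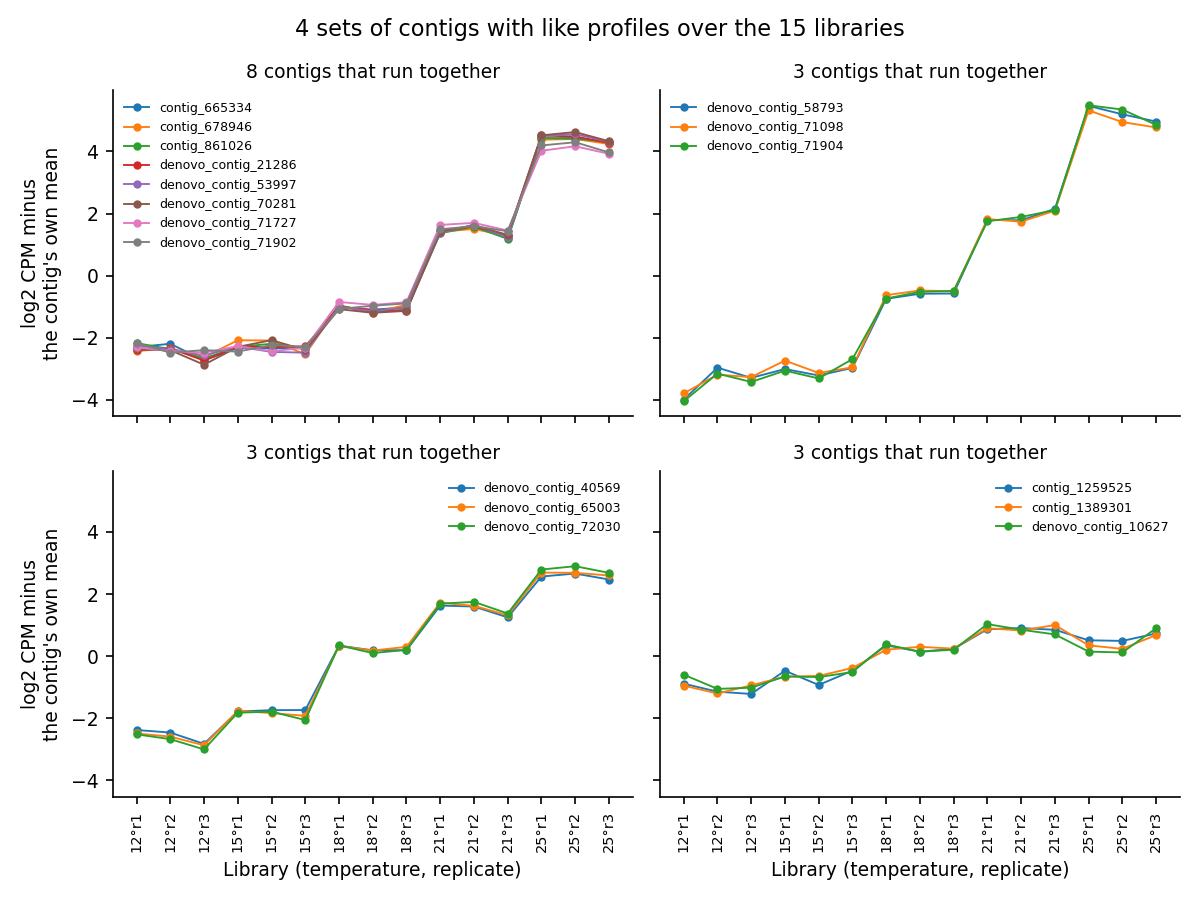
Log2 CPM of single contigs relative to their own mean (vertical axis) over the 15 libraries (horizontal axis, temperature and replicate) for 4 of the sets with like profiles. The set of 8 shows log2 steps of 2.43 to 2.59 at 21° and 2.44 to 3.04 at 25°, and the set of contig_1259525, contig_1389301 and denovo_contig_10627 lies lower at 25° than at 21°.

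Other sets had other shapes. The contigs denovo_contig_58793, denovo_contig_71098 and denovo_contig_71904 were 2.72 to 2.91 above 12° at 18° on the log2 scale, with further steps of 2.43 to 2.55 at 21° and 3.14 to 3.33 at 25°. The contigs denovo_contig_40569, denovo_contig_65003 and denovo_contig_72030 were already 0.79 to 0.83 higher at 15° and 2.78 to 2.94 higher at 18° than at 12°, and their later steps were 1.26 to 1.39 and 1.06 to 1.18. The 4 contigs contig_548466, denovo_contig_40548, denovo_contig_61835 and denovo_contig_61840 had a step of 0.88 to 1.03 at 21° and of only 0.36 to 0.55 at 25°. In contig_1259525, contig_1389301 and denovo_contig_10627 the log2 of the mean CPM was 0.62 to 0.66 higher at 21° than at 18°, and 0.29 to 0.48 lower at 25° than at 21°. With TMM the change at 25° was 0.03 ± 0.16 for contig_1259525, -0.15 ± 0.17 for contig_1389301 and -0.11 ± 0.20 for denovo_contig_10627, so that its direction turned for the first of them. The contigs with the largest ratios at 18°, denovo_contig_60596 and denovo_contig_71903, formed a pair with steps of 3.15 and 3.08 at 21° and 2.33 and 2.46 at 25° in plain CPM.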

How the data were processed

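RNAseq libraries from gill, 15 in all, were grouped by the temperature in their labels. After trimming, assembly of the contigs and alignment were done by the authors with CLC Genome Workbench. The authors deposited whole-number read counts for each contig, not normalized, as total and as unique reads, and the RPKM they computed. Those deposited RPKM values could be recomputed from total reads, contig length and library total (relative gap at most 0.0001 where RPKM exceeded 5). The library kit does not mark strand, so sense and antisense reads cannot be told apart. Of the 98 columns, 16 hold the authors' fold changes, differences, test statistics and p-values and were not used, and 34 others (repeated values, lengths and group means) were not used either.

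Total reads per library were 58654252 to 90869450. A contig was tested where 3 or more of the 15 libraries held 10 or more reads on it, which left 155951 contigs, all 142 members included. Each step (15° against 12°, 21° against 18°, 25° against 21°) was fitted over its 6 libraries in edgeR (version 4.0.16, R 4.3.3) with TMM, glmQLFit and glmQLFTest. Calls required an adjusted p (Benjamini-Hochberg, over all contigs tested) below 0.01 together with a fold change above 2. The standard error of a log2 fold change was taken as its size over the square root of F. The p-values measure the spread between pools. The levels of the 6 cool libraries were compared as log2(CPM + 0.1) over contigs with a mean of at least 0.2 CPM there. Other calculations used Python 3.11.15, numpy 2.4.6, pandas 2.3.3 and scipy 1.17.1, and the test was checked on simulated counts.

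The members, the groups and the comparisons were chosen with earlier results of these data known. Alternatives were DESeq2 (version 1.42.0) and its size factors, library totals, other filters and thresholds, a fit of all 15 libraries, unique reads, the replicate number as a block, and each library left out in turn. Contigs were named by a rule: the 6 largest ratios at 18°, the 5 highest RPKM at 18°, the largest called rises and falls of non-overlapping libraries (4 each at 25°, 3 each at 21°) and calls at 15°, the 4 lowest shares of unique reads under 50%, the nearest 2 on each side of the bar, and the 2 longest and 2 shortest. No fall and no contig at 15° met it. Others were named after their values were seen.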

Additional observations from a re-analysis of the deposited data

How the results depend on the processing

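The number of contigs that met the rule was 356 with a bar of 5/4 times, 51 with a bar of 2 times and 92 with a minimum of 4 CPM at 18°. It was 172 with a minimum of 0.25 CPM, 137 on unique reads and 144 on TMM-scaled library sizes, of which 132 were members, and 142 to 188 with each library left out. Members called higher at 21° than at 18° numbered 56 to 99 with each library left out, with 56 without the third 18° library and 57 without the first 21° library, and 84 to 95 under other scalings, tests, filters and reads. With the fold bar dropped and an adjusted p below 0.05 they numbered 112. Over all contigs tested in each fit, the corresponding numbers were 95 to 306, 212 to 360 and 547. Members called higher at 25° numbered 100 to 102 with each library left out, 93 to 103 under the other alternatives and 124 without the fold bar. The corresponding numbers over all contigs tested were 7523 to 10568, 6503 to 16037 and 20687. Counts of members called lower at any step, or called at 15°, were 0 in every alternative that was run. The rule itself limited lower calls at 21° and 25°.

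For the named contigs, 468 of the alternative values kept their direction and their side of the threshold, 24 kept the direction and lost the call, 11 gained a call and 3 reversed. The reversed values were small: contig_270957 at 25° was -0.066 with library totals, and contig_1337451 at 25° ran from -0.30 to 0.066 with each library left out, with 0.066 without the second 21° library and 0.0078 without the second 25° library. The call at 21° of denovo_contig_65003, denovo_contig_40569, denovo_contig_61835 and denovo_contig_19852 was lost on leaving out any library but the third at 21°. The call of contig_870151 at 25° was lost with library totals and with unique reads. The cause was not tested, beyond the smaller number of libraries.

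The replicates were run on 3 consecutive days, and that the replicate number marks the day was assumed for the block. Same-numbered libraries come from different fish and in most cases did not deviate together. Correlations of same-numbered deviations from the group means were taken over all tested contigs with a mean of at least 1 CPM in a step's libraries. They were -0.58, -0.25 and 0.54 for 12° and 15°, 0.37, -0.49 and -0.16 for 18° and 21°, and -0.33, 0.46 and -0.28 for 21° and 25°. Over the members alone they were 0.061, 0.087 and 0.27, then 0.41, -0.14 and -0.085, and then -0.37, 0.18 and -0.36. Over the larger set, same-numbered libraries correlated best with each other only for the third replicate at 12° and 15° and the second at 21° and 25°. With the replicate number as a block, 69 members were called higher at 21° (21 of the calls were lost and 2 gained) and 102 at 25° (1 lost), and 0 in any other direction or at 15°. Over all contigs tested, 142 were called higher and 0 lower at 21°, and 8544 higher and 4256 lower at 25°. The number of pools, 3 at each temperature, limits what the tests could call.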
